A study of Mus musculus with 22 samples.

Results

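Death receptors, necroptosis kinases, inflammatory caspases and their executioners were read in bulk liver RNA of mice with or without hepatic Flcn, on a chow or a methionine and choline deficient (MCD) diet. The set holds 10 genes chosen by name, Fas, Tnfrsf1a, Tnfrsf10b, Ripk1, Ripk3, Mlkl, Casp1, Casp4, Casp8 and Gsdmd, out of 55573 genes in the count table. All 10 passed the low-count filter (a mean of at least 10 reads per library), as did 14062 genes in all. The study asked whether removing Flcn from hepatocytes alters the liver's reaction to MCD feeding.

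All mice were C57BL/6. Control mice, called Cre, were Flcn WT/WT; Albumin-Cre+/-, so that they carried the Cre driver with intact Flcn alleles, and the 2 groups were Cre chow (n = 6) and Cre MCD (n = 5). The knockout mice, called FLCN KO or liver-Flcn-/-, were Flcn f/f with Albumin-Cre and formed the groups FLCN KO chow (n = 5) and FLCN KO MCD (n = 6). The diets began at 6 weeks of age and lasted 6 weeks, and the chow supplied 10 kcal percent of fat. Albumin-Cre recombines the floxed allele in hepatocytes, while the RNA came from whole liver, which also holds macrophages, endothelial cells, stellate cells and bile duct cells. In such bulk samples, fewer cells of a type and less RNA per cell cannot be told apart. The 22 libraries held 13751347 to 21144388 counts each.

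Death receptors of the tumor necrosis factor (TNF) receptor superfamily carry a cytoplasmic death domain. Once bound by ligand, they recruit adaptors that activate caspase-8, which starts apoptosis and cleaves RIPK1 and RIPK3. When caspase-8 is inactive, RIPK1 engages RIPK3, which phosphorylates MLKL, and MLKL then breaks the plasma membrane (necroptosis). Pyroptosis ends in membrane pores as well, made by gasdermin D after cleavage by the inflammatory caspases 1 and 4. Hepatocytes are known for their sensitivity to FAS and TNF signalling, and macrophages are a textbook site of inflammasome activity.

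Flcn itself was examined first. Its level, in read counts scaled to a common library size with trimmed mean of M values (TMM) factors and written as CPM, ran from 26.1 to 40.2 with a median of 31.8 in Cre chow livers. The FLCN KO chow livers had 24.2, 19.96, 16.7, 19.4 and 21.8 CPM, all below the Cre chow livers. On chow the log2 difference was -0.63 ± 0.17 (SE; edgeR quasi-likelihood test, adjusted p = 0.0249). On MCD the Cre livers had 31.7, 18.2, 39.9, 32.5 and 23.6 CPM and the FLCN KO livers ran from 17.6 to 32.6 with a median of 26.6, so that the groups overlapped (log2 difference -0.16 ± 0.17, adjusted p = 0.567). A count over the whole gene also takes reads from exons outside a floxed segment and from cells without Cre, and it separates the genotypes only on chow.

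Several libraries stood apart. Skeletal muscle markers (10 genes, the most abundant being Myh1) summed to 3174 CPM in Cre MCD 3 and 153 CPM in Cre MCD 4, against 70.5 CPM in FLCN KO MCD 3, 20.1 CPM in Cre MCD 1 and at most 14.2 CPM in the other 18. A smaller share of uniquely mapped reads marked 5 chow libraries, Cre chow 1, 5 and 6 and FLCN KO chow 1 and 3. These were also the only 5 chow livers with more Y-linked than Xist counts, so that sex and mapped share cannot be told apart on chow. The labels do not give sex, and 5 MCD livers were male by the same reading, 2 Cre and 3 FLCN KO. On chow, FLCN KO chow 4 and 5 had the most stellate cell and fibroblast marker RNA. Calls that are lost or gained without Cre MCD 3 or without the 5 chow libraries of smaller mapped share are given with each comparison.

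Promoter windows (250 bases before to 50 after the annotated start, RefSeq, GRCm38.p6) were at hand for 8 of the 10 genes. Loss of FLCN is known to activate the transcription factors TFEB and TFE3, which bind E-boxes with the core CACGTG. That core was found in the windows of 3 members, Fas, Ripk3 and Casp1, and in 7.15% of all 32851 windows of the same length. The 60 bases around each match are shown because they let the reader set the motif beside the genotype comparison, with the core in capitals. They lie at chr19:34290522-34290581 (plus strand) for Fas, chr14:55788886-55788945 (minus strand) for Ripk3 and chr9:5298353-5298412 (plus strand) for Casp1.
Fas: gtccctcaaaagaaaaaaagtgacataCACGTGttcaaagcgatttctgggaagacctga
Ripk3: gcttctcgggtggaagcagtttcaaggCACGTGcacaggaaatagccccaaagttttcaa
Casp1: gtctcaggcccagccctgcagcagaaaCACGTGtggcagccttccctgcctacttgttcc

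Casp4 held the only match to the NF-κB (κB) consensus among the 8, at chr9:5308731-5308790 (plus strand), with the matching letters in capitals. That consensus occurred in 4.51% of all windows.
Casp4: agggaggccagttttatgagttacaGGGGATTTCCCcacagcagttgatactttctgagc

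Tnfrsf1a and Mlkl are shown with the 250 bases before their starts, since they were the pair whose diet responses differed between the genotypes. The capitals in Tnfrsf1a (chr6:125349473-125349722, plus strand) mark an interferon-gamma activated (GAS) element, TTCNNNGAA, which 8.3% of all windows hold. None of the motifs searched matched in Mlkl (chr8:111338206-111338455, minus strand). GAS matches were found in 3 members, Fas, Tnfrsf1a and Ripk1, and the interferon regulatory factor core GAAANNGAA in 2, Ripk1 and Ripk3 (8.56% of all windows). The p53 half-site was found in none of the 8, against 8.36% of all windows. GAS and CACGTG are the same on both strands, the other motifs were searched on both, and a match describes letters only.
Tnfrsf1a: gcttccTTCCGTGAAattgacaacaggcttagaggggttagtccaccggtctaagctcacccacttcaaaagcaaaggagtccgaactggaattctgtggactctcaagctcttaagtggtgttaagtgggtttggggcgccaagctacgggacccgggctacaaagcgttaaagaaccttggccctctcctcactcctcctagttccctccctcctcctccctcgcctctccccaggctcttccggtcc
Mlkl: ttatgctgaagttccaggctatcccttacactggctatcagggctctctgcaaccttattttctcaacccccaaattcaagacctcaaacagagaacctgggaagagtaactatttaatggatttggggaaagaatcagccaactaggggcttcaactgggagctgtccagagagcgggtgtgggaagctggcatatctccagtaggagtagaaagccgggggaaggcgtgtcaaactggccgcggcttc

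Per length, the TNF receptor 1 gene Tnfrsf1a stood first of the 10 in every group, at 38.0 ± 2.27 CPM per kb of exon (SD, n = 6) in Cre chow livers. Gsdmd (20.8 ± 2.03), Fas (11.03 ± 2.26) and Casp8 (10.7 ± 2.17) followed, and Fas and Casp8 did not differ beyond their spread. Ripk1 (4.44 ± 0.369), Mlkl (2.84 ± 0.737) and Casp1 (2.30 ± 0.579) were lower, Ripk3 (0.874 ± 0.292) and Casp4 (0.528 ± 0.196) were under 1 CPM per kb, and Tnfrsf10b was last at 0.0463 ± 0.0275. In FLCN KO MCD livers Gsdmd was at 7.54 ± 0.833, behind Fas (10.6 ± 1.15) and Casp8 (8.14 ± 0.860), and Mlkl followed at 6.55 ± 0.749. Gsdmd and Casp8 there lay within their SDs of each other. The order from Casp1 down to Tnfrsf10b was the same in all 4 groups, though neighbours among these low genes lay close.

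**Figure D1:**
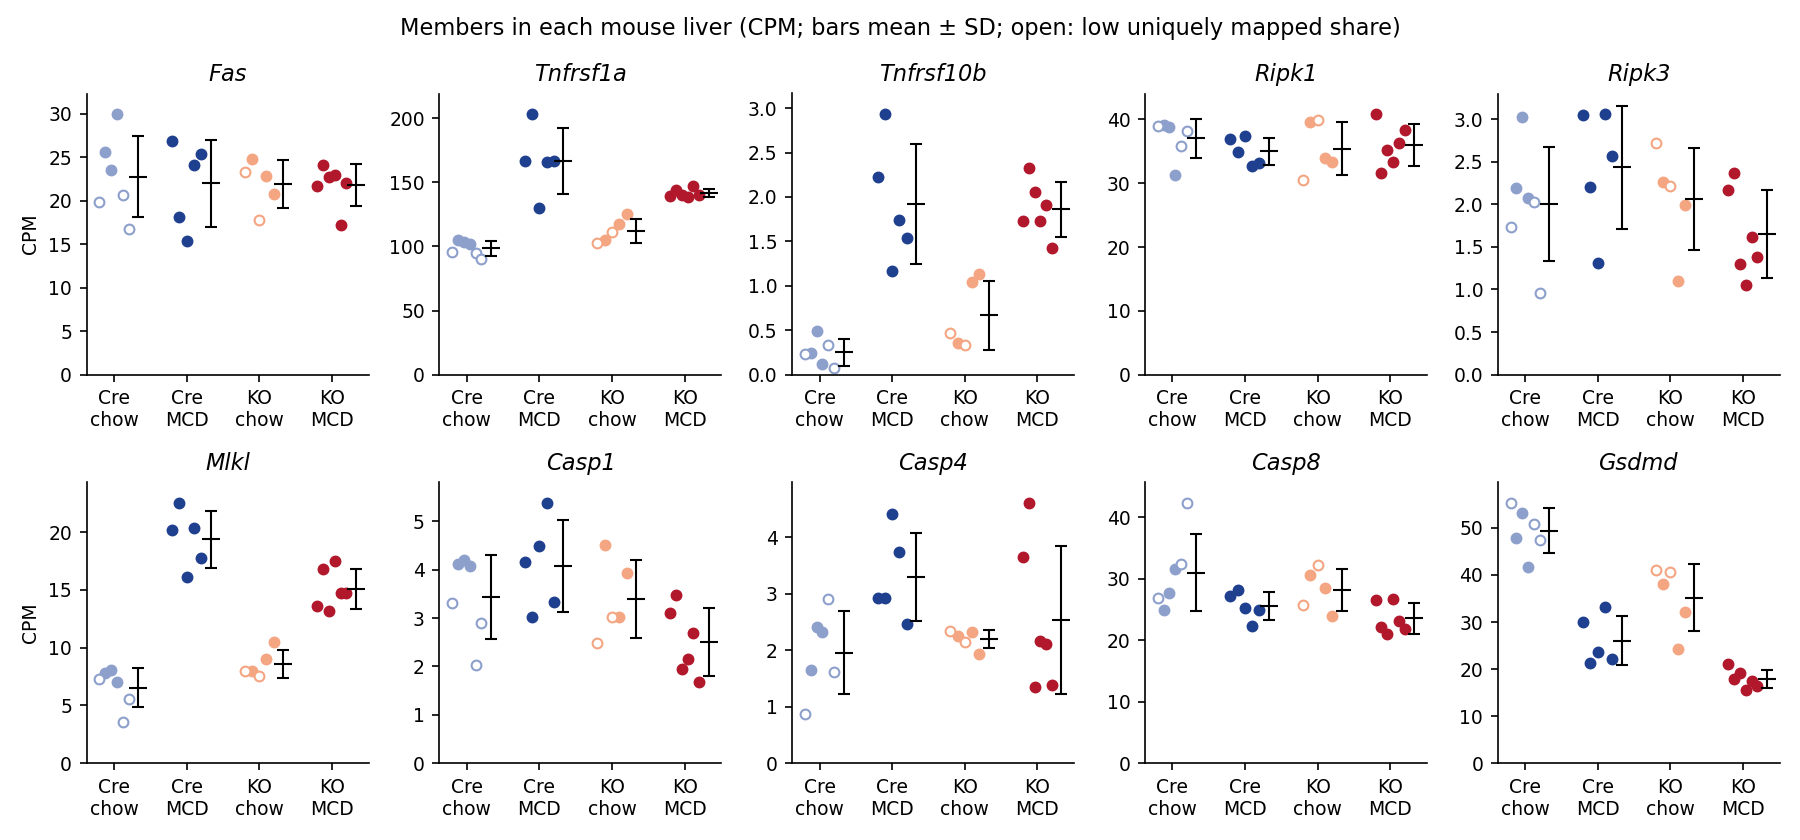
TMM-scaled CPM of the 10 genes in each of the 22 livers by group, with each mean and SD in black and open circles for the chow libraries with a smaller uniquely mapped share. Tnfrsf1a, Tnfrsf10b and Mlkl rose without overlap on MCD in both genotypes and Gsdmd fell without overlap, while the group means of Fas lay between 21.8 and 22.7 CPM and those of Ripk1 between 35.0 and 37.0 CPM.

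MCD feeding in Cre mice raised 4 of the 10 genes and lowered 1. The genes of a death receptor pair (Tnfrsf1a and Tnfrsf10b), the necroptosis executioner (Mlkl) and Casp4 rose, and the pyroptosis executioner Gsdmd fell. Among all 14062 genes tested, 29.3% were higher and 28.2% lower on MCD in Cre mice, so that a call in this comparison is common. The median log2 change was 0.26 over the 10 genes and 0.01 over all genes tested. Scaling by library totals alone raised the median of all genes to 0.43 and its calls from 4121 higher and 3968 lower to 7900 and 1748; it then called 8 of the 10 genes higher, the added calls being Fas, Ripk1, Ripk3 and Casp1, and still called Gsdmd lower.

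Tnfrsf1a encodes the main TNF receptor, and in Cre chow livers it ran from 89.8 to 105 CPM with a median of 98.9. Cre MCD livers had 166, 203, 130, 166 and 167 CPM. Every MCD liver lay above every chow liver, with Cre MCD 3, which carried the muscle RNA, the lowest of the 5. The log2 fold change was 0.76 (95% interval 0.58 to 0.93; edgeR, adjusted p = 1.85e-07), a 1.69-fold rise.

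Tnfrsf10b encodes the mouse receptor for TRAIL. It was close to the floor in Cre chow livers, with 1 to 8 counts per library (0.0803 to 0.494 CPM, median 0.240), and had 2.22, 2.93, 1.17, 1.75 and 1.54 CPM in Cre MCD livers, from 25 to 68 counts. All 5 MCD livers exceeded all 6 chow livers. The fitted log2 fold change of 2.88 (95% interval 2.10 to 3.65; edgeR, adjusted p = 1.44e-06) rests on these small chow counts.

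The pseudokinase gene Mlkl ran from 3.59 to 8.09 CPM with a median of 7.14 in Cre chow livers, against 20.2, 22.5, 16.1, 20.3 and 17.8 CPM in Cre MCD livers. These groups did not overlap, and the lowest chow liver, Cre chow 5, was among those with a smaller mapped share. The rise was 2.96-fold, with a log2 fold change of 1.56 (95% interval 1.24 to 1.88; edgeR, adjusted p = 3.41e-08).

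Casp4, whose product senses intracellular lipopolysaccharide, was lower and more scattered. It had 0.870 to 2.91 CPM with a median of 1.98 in Cre chow livers and 2.92, 2.93, 4.41, 3.74 and 2.46 CPM in Cre MCD livers, so that the groups overlapped. The log2 fold change of 0.74 (95% interval 0.12 to 1.36; edgeR, adjusted p = 0.0381) was the weakest of the 4 calls. It lost the threshold in 5 of 22 fits with 1 library left out, among them the fit without the muscle-marked Cre MCD 3 (0.61), and without the 5 chow libraries of smaller mapped share (0.63, adjusted p = 0.147).

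Gsdmd, the pore-forming executioner of pyroptosis, moved the other way. Cre chow livers had 41.7 to 55.3 CPM with a median of 49.4, and Cre MCD livers had 30.02, 21.2, 23.7, 33.2 and 22.1 CPM. The highest MCD liver was below the lowest chow liver. Its log2 fold change was -0.92 (95% interval -1.21 to -0.64; edgeR, adjusted p = 6.89e-06).

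In 4 genes the Cre MCD and Cre chow livers did not overlap, 3 upward and 1 downward. Over all genes tested, 15.6% lay wholly higher and 16.9% wholly lower. An exact permutation test of the log2 CPM values of each of the 4 genes, two-sided, gave 0.0022, the smallest p that 6 against 5 livers allow. Groups without overlap hold this p at or near its smallest value, so that it adds nothing to the lack of overlap. The 5 genes without a call were Fas (22.7 ± 4.66 CPM on chow and 22.0 ± 4.99 on MCD), the RIP kinases Ripk1 (37.0 ± 3.08 and 35.0 ± 2.13) and Ripk3 (2.00 ± 0.668 and 2.44 ± 0.723), Casp1 (3.44 ± 0.867 and 4.08 ± 0.946) and the initiator Casp8 (31.0 ± 6.27 and 25.6 ± 2.24). Of these, Casp8 came nearest to the threshold, with a log2 difference of -0.27 (95% interval -0.52 to -0.03; edgeR, adjusted p = 0.0515), and it passed in 5 of 22 fits with 1 library left out. For Fas the 95% interval ran from -0.36 to 0.26, and for Ripk1 from -0.26 to 0.09.

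In liver-Flcn-/- mice the MCD diet raised 3 genes, Tnfrsf1a, Tnfrsf10b and Mlkl, and lowered Gsdmd. Among all genes tested, 22.5% were higher and 22.5% lower, and the median log2 change was 0.01 for the 10 genes and 0.00 for all. The same 4 genes separated the groups without overlap, as did 14.4% of all genes upward and 14.8% downward. With library totals as the only scaling, Ripk1 was called higher as well, while the median of all genes rose to 0.27 and the calls went from 3162 higher and 3166 lower to 5803 and 1731.

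FLCN KO chow livers had 102, 105, 111, 117 and 125 CPM of Tnfrsf1a, and FLCN KO MCD livers ran from 139 to 147 with a median of 140. The MCD livers were closely grouped (coefficient of variation 2.31%, against 15.5% in Cre MCD livers). The log2 fold change was 0.33 (95% interval 0.16 to 0.51; edgeR, adjusted p = 0.00297).

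For Tnfrsf10b the FLCN KO chow livers had 0.467, 0.356, 0.336, 1.05 and 1.13 CPM, and the MCD livers 1.43 to 2.32 with a median of 1.82. The chow livers fell apart into 3 low and 2 higher ones, all below the MCD livers. The log2 fold change was 1.44 (95% interval 0.74 to 2.14; edgeR, adjusted p = 0.00149).

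Mlkl had 7.94, 7.96, 7.52, 8.99 and 10.5 CPM in FLCN KO chow livers and ran from 13.1 to 17.5 with a median of 14.7 on MCD. All MCD livers were higher, by 1.75-fold in the fit (log2 fold change 0.81, 95% interval 0.49 to 1.13; edgeR, adjusted p = 0.000214).

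Gsdmd had 41.1, 38.0, 40.6, 24.2 and 32.1 CPM in FLCN KO chow livers and 15.6 to 21.0 CPM with a median of 17.7 on MCD. FLCN KO chow 4 was the lowest chow liver and still above all MCD livers. The log2 fold change was -0.97 (95% interval -1.25 to -0.69; edgeR, adjusted p = 5.58e-06).

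Casp4 did not pass the test in FLCN KO livers (2.20 ± 0.162 CPM on chow and 2.54 ± 1.31 on MCD; log2 difference 0.21, 95% interval -0.41 to 0.83). Casp8 was at 28.2 ± 3.42 and 23.5 ± 2.49 CPM (log2 difference -0.26, adjusted p = 0.0779). Fas had 21.9 ± 2.71 and 21.8 ± 2.38 CPM and Ripk1 35.4 ± 4.11 and 36.0 ± 3.32, neither separated by diet. Ripk3 had 2.06 ± 0.597 and 1.65 ± 0.516 CPM, and Casp1 3.40 ± 0.812 and 2.51 ± 0.705, both with overlapping groups. Without the 5 chow libraries of smaller mapped share, Casp1 was called lower on MCD in FLCN KO livers (log2 difference -0.61; edgeR, adjusted p = 0.0422).

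**Figure D2:**
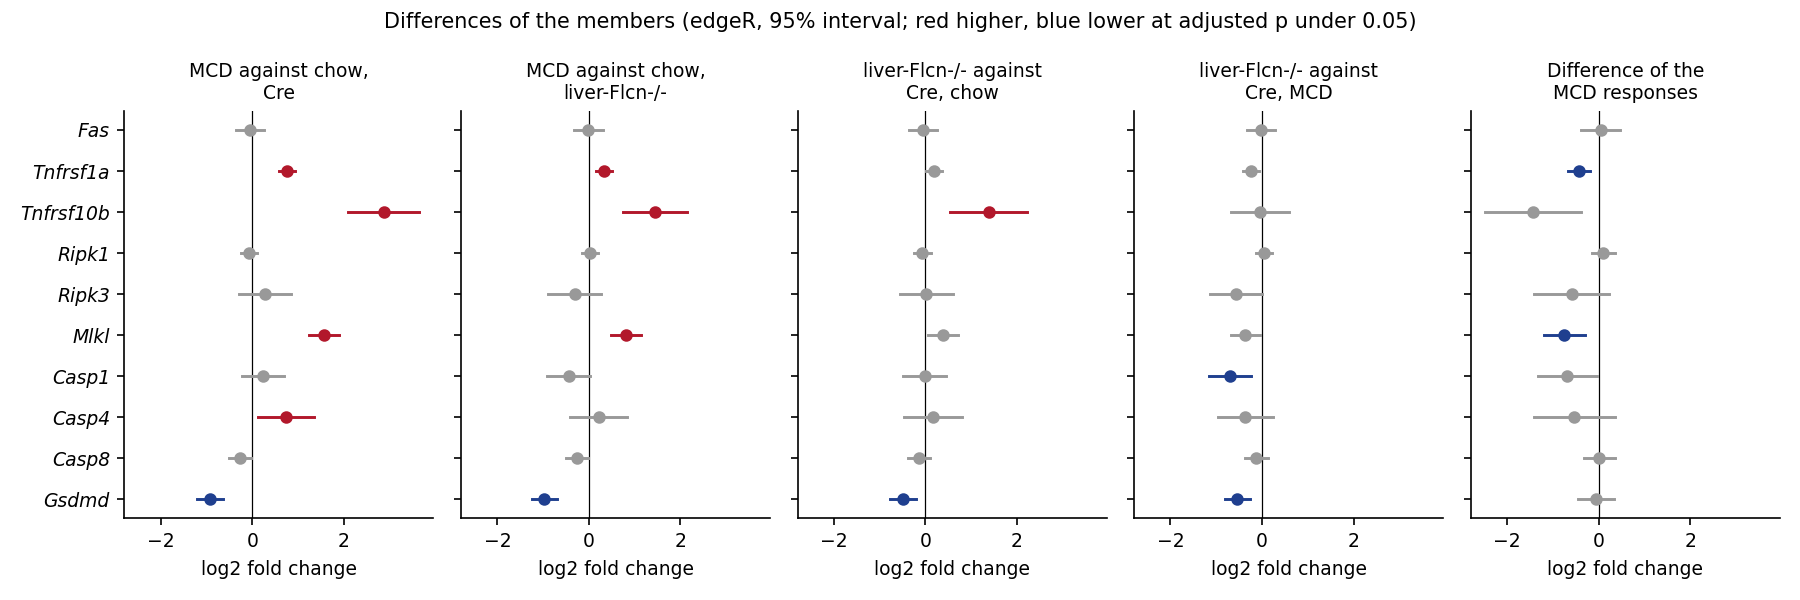
Log2 fold changes of the 10 genes from edgeR with 95% intervals in the 4 comparisons of groups and in the difference between the MCD responses, red where higher and blue where lower at an adjusted p under 0.05. Tnfrsf1a, Tnfrsf10b and Mlkl stand to the right and Gsdmd to the left of 0 in both MCD responses, and Gsdmd stands to the left in both genotype comparisons.

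Whether the MCD response depended on genotype was tested by the interaction, the response in liver-Flcn-/- mice minus that in Cre mice. It was negative and past the threshold for 2 of the 10 genes, and for none positive. For Tnfrsf1a it was -0.42 on the log2 scale (95% interval -0.67 to -0.18; edgeR, adjusted p = 0.0299), and for Mlkl -0.75 (95% interval -1.20 to -0.30; adjusted p = 0.0330). Among all genes tested, 5.54% had a negative and 3.29% a positive interaction at the same threshold, 779 and 463 genes (1236 and 177, with a median of -0.13, when library totals were the only scaling).

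Both genes rose in both genotypes, and by less in FLCN KO livers. Mlkl climbed from 6.54 ± 1.70 to 19.4 ± 2.48 CPM in Cre mice and from 8.58 ± 1.20 to 15.1 ± 1.73 CPM in liver-Flcn-/- mice. Of 9 monocyte-derived macrophage markers 6 had a negative interaction (median -1.87), as did 3 of 8 stellate cell and fibroblast markers (median -1.55). Des, 1 of these 8, had 146 CPM in the muscle-marked Cre MCD 3 against 5.99 to 15.3 CPM in the other Cre MCD livers. Neither list had a positive call, while 1 of 10 hepatocyte markers had one. The part of these cells in the 2 members' interactions was not tested. Tnfrsf10b had an interaction of -1.43 (95% interval -2.49 to -0.38), which did not pass (adjusted p = 0.0782), but it passed without the muscle-marked Cre MCD 3 (-1.57, adjusted p = 0.0494) and without Cre chow 3 (-1.74, adjusted p = 0.0403). For Gsdmd the interaction was -0.05 (95% interval -0.44 to 0.34), which leaves room for a difference of that size either way. The calls for Tnfrsf1a and Mlkl were close to the threshold, and both were lost when the 5 chow libraries with a smaller mapped share were left out, with no low-count filter, and without FLCN KO chow 4, FLCN KO chow 5 or Cre MCD 1. Of the 22 fits that left out 1 library, 18 called Tnfrsf1a and 13 called Mlkl. The interaction was -0.40 for Tnfrsf1a (adjusted p = 0.121) and -0.63 for Mlkl (adjusted p = 0.0545) without those 5 libraries, and ran from -0.50 to -0.34 and from -0.82 to -0.63 over the fits that left out 1 library.

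On chow, the genotype difference reached 2 of the 10 genes, Tnfrsf10b upward and Gsdmd downward. In all genes tested, 5.52% were higher and 3.1% lower in FLCN KO chow livers. Every FLCN KO chow liver had less Gsdmd (24.2 to 41.1 CPM) than every Cre chow liver (41.7 to 55.3 CPM), though the nearest livers of the 2 groups lay close together. The log2 difference was -0.49 (95% interval -0.77 to -0.21; edgeR, adjusted p = 0.0252), and 2.93% of all genes were lower and 4.01% higher in the same way without overlap.

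The Gsdmd call on chow was lost without the 5 chow libraries of smaller mapped share (log2 difference -0.60, adjusted p = 0.0832), without Cre chow 1, FLCN KO chow 4 or FLCN KO chow 5, with no low-count filter and with library totals as the only scaling (adjusted p = 0.103). Within the 5 libraries of smaller mapped share, Gsdmd averaged 51.2 CPM in 3 Cre and 40.9 CPM in 2 FLCN KO livers, and within the others 47.6 CPM in 3 Cre and 31.5 CPM in 3 FLCN KO livers. The log2 ratios of these means, each over 2 or 3 livers, were -0.33 and -0.60.

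Tnfrsf10b on chow differed by 1.39 on the log2 scale (95% interval 0.54 to 2.23; edgeR, adjusted p = 0.0356), with 1 to 8 counts in Cre and 5 to 21 counts in FLCN KO libraries. The groups overlapped, and 2 livers, FLCN KO chow 4 and 5, had the highest values. The same 2 livers had the most stellate cell and fibroblast marker RNA on chow (8 genes, most abundant Reln), with sums of 213 and 204 CPM against 98.7 to 160 CPM in the other FLCN KO and 79.5 to 164 CPM in the Cre chow livers, and its part in the Tnfrsf10b difference was not tested. Among those markers, Col3a1 was at 60.4 and 65.7 CPM against 25.4 to 35.2 CPM in the other FLCN KO chow livers. Acta2 had 61 and 77 counts against 4 to 13 counts there, but also 59 counts in Cre chow 5. Reln and Hand2 did not set both livers apart. FLCN KO chow 2 had 71.2 CPM of Reln against 69.8 and 64.0 CPM, and 8.79 CPM of Hand2 against 8.44 and 9.75 CPM. The Tnfrsf10b call stood in 16 of 22 fits with 1 library left out and was lost without FLCN KO chow 4 or 5 or without Cre chow 1, 2, 4 or 6, as it was in limma-voom and without the 5 chow libraries of smaller mapped share (1.55, adjusted p = 0.107). Within the libraries of smaller mapped share the means were 0.219 CPM in Cre and 0.401 CPM in FLCN KO livers, and in the others 0.286 and 0.845 CPM.

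The other 8 genes had no call on chow. Mlkl (log2 difference 0.39, 95% interval 0.07 to 0.72; edgeR, adjusted p = 0.127) and Tnfrsf1a (0.19, 95% interval 0.02 to 0.37; adjusted p = 0.172) did not pass, but with library totals as the only scaling both were called higher and the median of all genes was 0.12, with 1452 genes higher and 125 lower in place of 776 and 436. Neither Fas, Ripk3 nor Casp1, the members with a CACGTG core, passed the test by genotype on chow, at -0.06, 0.02 and -0.02 on the log2 scale. On MCD the same 3 were at -0.01, -0.56 and -0.70, of which the test called Casp1 lower.

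On MCD, FLCN KO livers had less Casp1 and less Gsdmd than Cre livers, and no member was higher. Over all genes tested, 8.53% were lower and 8.06% higher. The median log2 difference of the 10 genes was -0.30, against -0.01 for all genes tested.

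Gsdmd had 15.6 to 21.0 CPM in FLCN KO MCD livers and 21.2 to 33.2 CPM in Cre MCD livers, without overlap, though the nearest livers lay close. The log2 difference was -0.54 (95% interval -0.82 to -0.26; edgeR, adjusted p = 0.00773). This call held in all 22 fits that left out a library and in all 10 other alternatives. Over all genes, 3.53% were lower and 5.08% higher in this way without overlap.

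Casp1, the caspase that matures interleukin-1 beta and interleukin-18, had 4.16, 3.02, 4.50, 5.38 and 3.33 CPM in Cre MCD livers and 1.67 to 3.49 CPM with a median of 2.42 in FLCN KO MCD livers. The groups overlapped, with FLCN KO MCD 1 and 2 inside the Cre range. The log2 difference was -0.70 (95% interval -1.15 to -0.24; edgeR, adjusted p = 0.0327). It lost the threshold in 6 of 22 fits with 1 library left out, including the fit without Cre MCD 3 (-0.66), where Tnfrsf1a passed instead (-0.31). The Casp1 call was also lost with no low-count filter (-0.69, adjusted p = 0.0638) and with only the compared groups fitted (-0.70, adjusted p = 0.0531), and it stood in 7 of 10 alternatives other than leaving out 1 library. Mlkl (log2 difference -0.36, 95% interval -0.67 to -0.05; adjusted p = 0.100) and Tnfrsf1a (-0.23, adjusted p = 0.0608) were below the Cre livers without passing. Mlkl passed without the 5 chow libraries of smaller mapped share (-0.36, adjusted p = 0.0231). Ripk3 was at -0.56 (95% interval -1.13 to 0.01) and Tnfrsf10b at -0.05 (95% interval -0.68 to 0.58).

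The executioners of necroptosis and pyroptosis were set against each other within each library, a ratio that no library scaling alters. Per kb of exon, Mlkl stood at 0.0727 to 0.173 of Gsdmd in Cre chow livers (median 0.146) and at 0.199, 0.216, 0.191, 0.383 and 0.338 in FLCN KO chow livers. On MCD the ratios were 0.694, 1.09, 0.703, 0.632 and 0.831 in Cre livers and ran from 0.670 to 1.16 (median 0.900) in FLCN KO livers. The chow and MCD livers did not overlap, and neither did the genotypes on chow, whereas on MCD the genotypes overlapped. Within each genotype, the separation by diet follows from the separate rise of Mlkl and fall of Gsdmd and adds nothing to them. The separation by genotype on chow likewise reuses the Gsdmd values that did not overlap there.

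**Figure D3:**
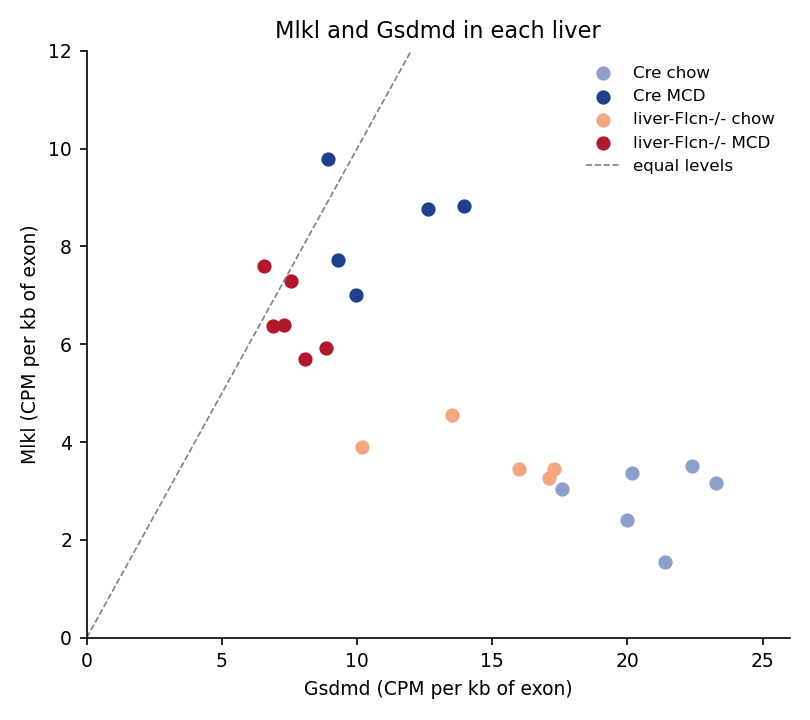
Mlkl against Gsdmd in CPM per kb of exon for each of the 22 livers, coloured by group, with a dashed line where the levels are equal. Chow livers lie at low Mlkl and high Gsdmd, MCD livers near the dashed line, with ratios of 0.632 to 1.16.

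Across the 22 libraries the log2 CPM of Tnfrsf1a, Mlkl and Tnfrsf10b ran together (Pearson r = 0.94 for Tnfrsf1a with Mlkl, 0.91 for Tnfrsf1a with Tnfrsf10b and 0.88 for Tnfrsf10b with Mlkl). After subtraction of group means, r was 0.55, 0.66 and 0.36. Those means hold both diet and genotype. Gsdmd ran against them (r = -0.84 with Tnfrsf10b and -0.77 with Mlkl), and within groups r was -0.20 and -0.18. Ripk3 and Casp1 had r = 0.51, and 0.37 within groups. These libraries share the 4 groups, and the values are descriptions.

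Of all genes tested, those most like each member over the 22 libraries were Mcm2 (r = 0.97), Dnah1 and Srxn1 for Tnfrsf1a, Src (r = 0.96), Rps6ka4 and Calml4 for Tnfrsf10b, and Acot9 (r = 0.96), Mcm2 and Ctps2 for Mlkl. Gsdmd was most like Apon (r = 0.95), Serpinf2 and Cyp2d40. Ripk3 was most like Cd5l (r = 0.79), Pilra and C1qc, Casp1 like Acvrl1 (r = 0.91), Adgre5 and Pld4, and Casp4 like Hvcn1 (r = 0.82), Sfxn3 and Mical1. Casp8 was most like Foxa1 (r = 0.84), Zfp958 and Onecut1, Ripk1 like Ncoa6 (r = 0.83), Spg11 and Pdpr, and Fas like Dnmt3b (r = 0.73), E430021H15Rik and Ppp1ca.

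Markers of other cells moved with the diet. Monocyte-derived macrophage markers (9 of 9 genes tested, most abundant over all livers Lyz2) were higher on MCD for 9 genes in Cre and 6 in FLCN KO livers. Their summed level was 88.9 ± 10.0 and 388 ± 134 CPM in Cre chow and MCD livers and 127 ± 10.97 and 291 ± 116 CPM in FLCN KO chow and MCD livers. The MCD sums rest largely on Gpnmb and Lyz2. In FLCN KO MCD livers Gpnmb ran from 55.2 to 260 CPM and Lyz2 from 53.1 to 180 CPM. Cre MCD livers had 47.8 to 262 CPM of Gpnmb and 126 to 229 CPM of Lyz2. On chow, Gpnmb had 0.0791 to 0.677 CPM in Cre and 0.467 to 4.08 CPM in FLCN KO livers. On MCD 5 of the 9 were lower in FLCN KO than in Cre livers, none higher (median log2 difference -0.93), beside the lower Casp1. On chow 3 of the 9 were higher in FLCN KO livers and none lower (median 0.74), where Casp1 differed by -0.02. Kupffer and general macrophage markers (11 of 11 tested, most abundant Cd5l) summed to 681 ± 113, 748 ± 156, 819 ± 135 and 593 ± 161 CPM in Cre chow, Cre MCD, FLCN KO chow and FLCN KO MCD livers, with 3 higher and 2 lower on MCD in Cre livers, 5 lower in FLCN KO livers, 1 higher by genotype on chow, and 1 higher and 1 lower by genotype on MCD. Hepatocyte markers (10 of 10 tested, most abundant Alb) were lower on MCD for 7 genes in each genotype, beside the fall of Gsdmd. By genotype, all 10 were below Cre livers on chow (median log2 difference -0.42, 1 called) and 7 on MCD (median -0.09, 2 called), beside the lower Gsdmd on both diets. They summed to 144925 ± 17176 and 100273 ± 15456 CPM in Cre and 119213 ± 21049 and 80143 ± 8502 CPM in FLCN KO livers. All marker genes of these 3 lists were counted in at least 1 library, and their part in the members' differences was not tested.

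Neutrophil markers (4 of 7 genes tested, most abundant S100a9) rose for all 4 tested genes on MCD in both genotypes, from 3.87 ± 2.56 to 28.1 ± 17.2 CPM summed in Cre and from 4.38 ± 1.95 to 15.9 ± 5.62 CPM in FLCN KO livers. Stellate cell and fibroblast markers (8 tested) were higher for 6 genes on MCD in Cre livers and for none in FLCN KO livers, where 1 was lower. By genotype on MCD, 5 were lower. Des, 1 of the 8, had 146 CPM in Cre MCD 3 and 15.3 CPM in Cre MCD 4, the livers with the most muscle RNA. The other Cre MCD livers had 5.99 to 6.96 CPM of Des, so that its values on MCD cannot be read as stellate cell RNA alone. Of 6 bile duct markers 4 were higher on MCD in Cre and none in FLCN KO livers, with 1 higher by genotype on chow and 1 higher and 1 lower on MCD. Endothelial markers (8 tested) were lower on MCD for 4 genes and higher for 1 in Cre livers, lower for 6 and higher for none in FLCN KO livers, and higher by genotype for 1 on each diet. Of 7 T and NK cell markers tested and 6 B cell markers, none changed on MCD in Cre livers, and 4 and 3 were lower in FLCN KO livers. By genotype, 1 B cell marker was higher on chow and 1 lower on MCD. The 6 B cell markers summed to 94.0 CPM in Cre MCD 3, against 6.77 to 13.9 CPM in the other Cre MCD livers. FLCN KO MCD livers had 6.87 to 12.7 CPM. All 10 skeletal muscle markers were called higher on MCD in Cre livers and lower by genotype on MCD, with nearly all of that RNA in Cre MCD 3.

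Against the counts of pathway genes called on MCD stand the shares of all genes tested, 29.3% higher and 28.2% lower in Cre livers and 22.5% in each direction in FLCN KO livers, with median log2 changes of 0.01 and 0.00. Of 7 listed genes for death ligands and further receptors 5 were tested, with 2 higher and 1 lower on MCD in Cre livers, and 0 and 1 in FLCN KO livers. Tnf, the ligand of TNF receptor 1, rose from 0.163 ± 0.135 to 1.25 ± 0.570 CPM in Cre livers (log2 fold change 2.85; edgeR, adjusted p = 7.49e-05), whereas in FLCN KO livers it had 0.299 ± 0.198 and 0.531 ± 0.223 CPM (0.76, adjusted p = 0.225). The interaction for Tnf was -2.09 and did not pass (adjusted p = 0.0784). Tnf was close to the floor on chow, with 0 to 5 counts per library in Cre and 1 to 11 in FLCN KO livers. On MCD it had 14 to 44 counts in Cre and 5 to 19 in FLCN KO livers. Its fitted changes, and the contrast between the genotypes, rest on these small counts. Tnfsf10, which encodes TRAIL, fell on MCD in Cre (6.03 ± 1.02 to 3.99 ± 1.87 CPM, log2 fold change -0.60) and FLCN KO livers (6.82 ± 2.18 to 3.43 ± 0.892 CPM, -0.99), opposite to its receptor gene Tnfrsf10b. Fasl had group means of 0.149 to 0.244 CPM and was below the filter.

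Tnfrsf25, the gene of death receptor 3, was the pathway gene with the lowest adjusted p on chow. It had 0.242 ± 0.209 CPM in Cre chow and 2.71 ± 1.30 CPM in FLCN KO chow livers (log2 difference 3.38; edgeR, adjusted p = 0.000195). On MCD it had 0.271 ± 0.134 and 1.93 ± 0.900 CPM (2.81, adjusted p = 0.000826).

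Adaptors, inhibitors and caspases downstream of the receptors were all tested (22 of 22). On MCD 5 were higher and 11 lower in Cre livers, and 4 higher and 5 lower in FLCN KO livers, with a median log2 change of -0.20 and -0.15. Casp6, an effector caspase gene, rose in both, and more in FLCN KO livers. By genotype, 1 of the 22 was higher and none lower on chow, where 5.52% and 3.1% of all genes tested were. On MCD 2 were higher and 3 lower by genotype, against 8.06% and 8.53% of all genes tested.

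For Casp6 the Cre livers went from 28.1 ± 5.33 to 40.3 ± 8.70 CPM (log2 fold change 0.52) and the FLCN KO livers from 37.1 ± 4.66 to 104 ± 8.88 CPM (1.48). The interaction was 0.96 ± 0.20 (SE; edgeR, adjusted p = 0.00494) and the genotype difference on MCD 1.36 ± 0.14 (adjusted p = 1.39e-06). Every FLCN KO MCD liver (93.7 to 114 CPM) lay above every Cre MCD liver (31.9 to 54.3 CPM).

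Bid, which links caspase-8 to mitochondria, was higher in FLCN KO livers on both diets, at 21.3 ± 3.55 against 14.2 ± 2.49 CPM on chow (log2 difference 0.59, edgeR, adjusted p = 0.00265) and 19.5 ± 1.02 against 9.92 ± 1.36 CPM on MCD (0.97, adjusted p = 1.17e-05). Tnfaip3, the NF-κB target that encodes the inhibitor A20, rose in Cre livers from 2.36 ± 0.636 to 9.63 ± 2.32 CPM, whereas it had 3.44 ± 0.749 and 4.66 ± 1.56 CPM in FLCN KO livers. Its interaction was -1.59 ± 0.33 (SE; edgeR, adjusted p = 0.00537), the same sign as those of Tnfrsf1a and Mlkl.

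Further necroptosis genes (10 of 11 tested) had no riser on MCD in either genotype, and 2 were lower in Cre and 4 in FLCN KO livers. Ppm1b, a phosphatase, fell from 78.8 ± 5.13 to 35.3 ± 5.23 CPM in Cre livers (log2 fold change -1.16; edgeR, adjusted p = 1.26e-09) and from 73.2 ± 6.39 to 44.6 ± 3.72 CPM in FLCN KO livers (-0.71). The median log2 change of the 10 was -0.01 in Cre and -0.24 in FLCN KO livers. By genotype, none was called on chow, and on MCD 1 was higher and 2 lower, against 8.06% and 8.53% of all genes tested.

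Pyroptosis and inflammasome genes (24 of 24 tested) split on MCD in Cre livers into 9 higher and 6 lower, and in FLCN KO livers into 1 higher and 9 lower, with a median log2 change of 0.07 and -0.28. Nlrp6, an inflammasome sensor, had the lowest adjusted p in both and fell from 173 ± 17.8 to 30.1 ± 6.59 CPM in Cre (log2 fold change -2.52; edgeR, adjusted p = 6.36e-11) and from 145 ± 20.2 to 35.99 ± 8.69 CPM in FLCN KO livers (-2.01, adjusted p = 1.38e-09). None of the 24 was called by genotype on chow, 2 were lower on MCD, and 4 had a negative interaction, where 8.53% and 5.54% of all genes tested were lower on MCD and negative in the interaction.

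Intrinsic apoptosis genes (20 of 21 tested) were higher for 11 and lower for 6 on MCD in Cre livers, and for 8 and 3 in FLCN KO livers, with a median log2 change of 0.27 and 0.19. Bcl2a1b, a survival gene of the BCL2 family, rose from 0.274 ± 0.201 to 2.53 ± 0.690 CPM in Cre and from 0.537 ± 0.106 to 1.10 ± 0.365 CPM in FLCN KO livers, with an interaction of -2.08 (edgeR, adjusted p = 0.0183); it has near-identical copies among which reads can be split. Bmf, a BH3-only gene, was lower in FLCN KO chow livers (5.26 ± 3.89 against 12.8 ± 3.51 CPM, log2 difference -1.27, adjusted p = 0.0251). Bik, another BH3-only gene, was higher in FLCN KO MCD livers (4.58 ± 0.998 against 1.03 ± 0.259 CPM, 2.15, adjusted p = 0.000196).

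**Figure D4:**
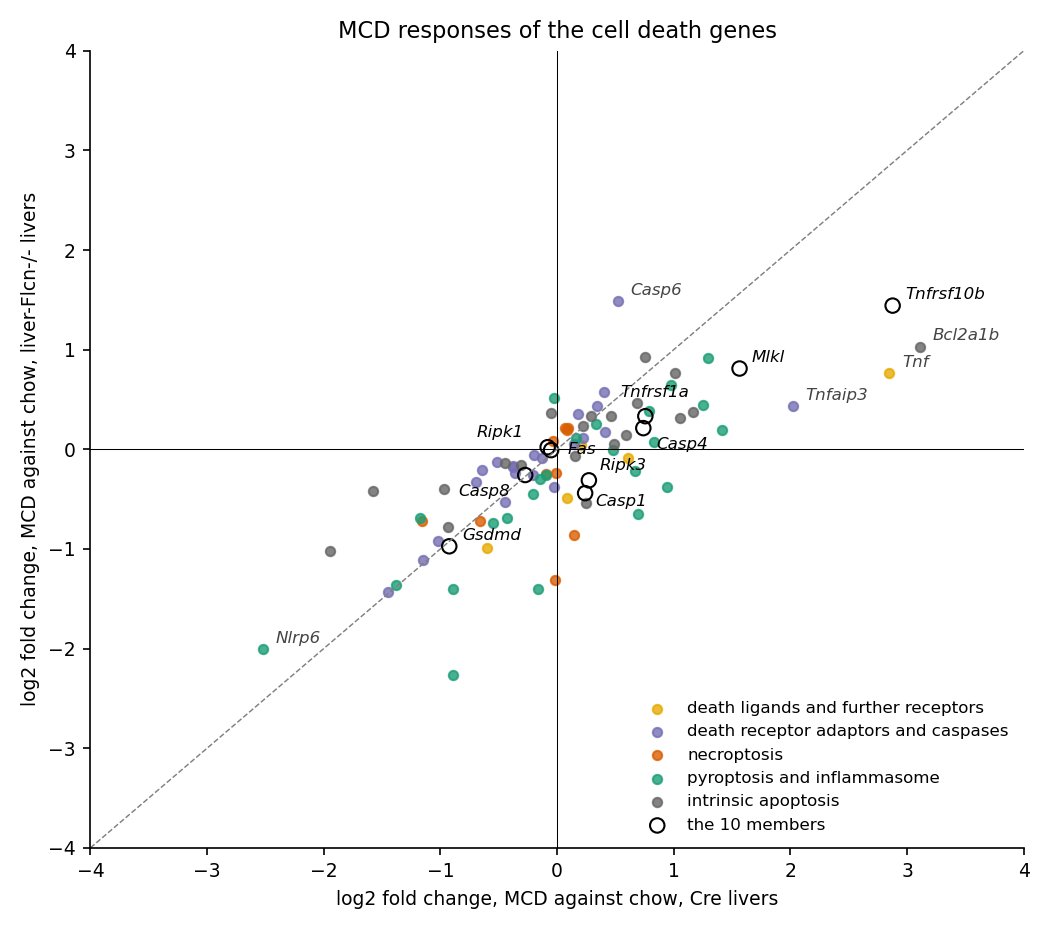
MCD response in liver-Flcn-/- livers (log2 fold change, vertical) against that in Cre livers (horizontal) for the tested cell death genes, coloured by list, with the 10 members circled and a dashed line where the responses are equal. Mlkl (1.56 and 0.81) and Tnfrsf10b (2.88 and 1.44) lie below the line, Gsdmd (-0.92 and -0.97) on it, and Casp6 (0.52 and 1.48) above it.

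By position on GRCm38, the gene spans of several members, introns included, overlap other annotated genes. Ripk1 overlaps the opposite-strand gene Serpinb6a over 432 bases, and Mlkl, Ripk1 and Fas contain pseudogene or non-coding models. Casp8 overlaps the same-strand model Gm37760 over 3841 bases of its span, more than its whole exon length of 2893 bases. Casp1 and Casp4 are neighbours on chromosome 9, with 1562 bases between them. Reads in overlapping exons cannot be assigned with certainty where counting ignores strand or both genes share it. The exon part of these overlaps was not measured.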

How the data were processed

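RNA-seq was made from 22 mouse livers in 4 groups of 5 or 6. The authors deposited raw gene counts; their processing notes name bcl2fastq, Trimmomatic, STAR, HTSeq and the build GRCm38, with versions and strand setting not given in the sources used here. All 22 columns matched a sample. Which chow libraries had a smaller uniquely mapped share was taken from the study's read statistics. edgeR 4.0.16 (R 4.3.3; TMM factors 0.815 to 0.969 on chow and 1.06 to 1.20 on MCD) fitted all groups together over genes averaging 10 or more counts, with quasi-likelihood tests and Benjamini-Hochberg adjustment over 14062 genes at 0.05; intervals cover 95%. The study used limma; here limma-voom (limma 3.58.1) and DESeq2 1.42.0 were alternatives. CPM are TMM-scaled; correlations used log2 CPM with a prior count of 2; exon lengths came from GENCODE. The fit was tested on simulated data. Replicates were numbered in the labels, each with its own source name, and p-values measure the spread between these libraries. The members and gene lists were chosen with earlier results of these data known. Besides the members, Flcn and markers, named genes were the 3 of the pathway lists with the lowest adjusted p in each comparison, and Tnf, Fasl and Tnfsf10; a gene that this rule names is not reported here.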

Additional observations from a re-analysis of the deposited data

Results flagged for a closer look

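The MCD responses of 2 members differed between the genotypes by the interaction test. For Tnfrsf1a the response was smaller in liver-Flcn-/- than in Cre mice by a log2 difference of -0.42, and for Mlkl by -0.75. Both genotypes moved upward, and both interactions lost the threshold without FLCN KO chow 4 or FLCN KO chow 5. Fas in the library FLCN KO MCD 5 stood far from its group, with 17.2 CPM against 21.7 CPM in the next lowest of the 6 livers. It was the only such library among 40 groups of members' values, of which chance gives about 1 in 20.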

How the results depend on the processing

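The rises of Tnfrsf1a, Tnfrsf10b and Mlkl and the fall of Gsdmd on MCD in both genotypes, and the lower Gsdmd in FLCN KO livers on MCD, kept direction and threshold in all 22 fits without 1 library and in every other alternative that tested them (limma-voom, DESeq2, RLE factors, both count filters, only the groups compared, no low-mapped chow libraries, sex as a covariate, the replicate block and, chosen after seeing the data, library totals alone); Tnfrsf10b was not tested under the filter of at least 10 counts in every library. With library totals alone, 8 genes were higher on MCD in Cre mice and 3 higher and 0 lower by genotype on chow; the all-gene median then moved to 0.43, 0.27, 0.12, -0.02 and -0.13 in the 5 comparisons. Under that scaling the log2 values of genes that changed sign were, for Fas, 0.36 (MCD, Cre), 0.25 (MCD, FLCN KO), 0.090 (genotype, chow) and -0.11 (interaction), for Ripk1 0.34 (MCD, Cre), 0.083 (genotype, chow) and -0.058 (interaction), for Casp8 0.15 (MCD, Cre), 0.0065 (MCD, FLCN KO), 0.016 (genotype, chow) and -0.15 (interaction), and for Casp1 0.12 (genotype, chow). The count higher on chow was 0 under limma-voom, with no filter, with at least 10 counts in every library, with only the groups compared, without the low-mapped libraries and with the block. The count lower on chow was 0 with no filter and without the low-mapped libraries. The count higher on MCD in Cre mice was 3, without Casp4, when the low-mapped libraries were left out or the block was fitted, and 3, without Tnfrsf10b, with at least 10 counts in every library. On MCD by genotype 1 gene was lower with no filter or with the block, Casp1 being lost; with only the groups compared Casp1 was lost and Mlkl called (-0.36), and 3 genes were lower without the low-mapped libraries (Mlkl added) and in DESeq2 (Tnfrsf1a added, -0.24). No negative interaction remained with no filter, without the low-mapped libraries or with the block, and 2 genes were lower on MCD in FLCN KO mice with only the groups compared (Casp8 added, -0.27) or without the low-mapped libraries (Casp1 added, -0.61). Leaving out 1 library gave 3 to 4 higher and 1 to 2 lower on MCD in Cre mice, 1 to 2 lower on MCD in FLCN KO mice, 0 to 1 in each direction on chow, 1 to 3 lower on MCD by genotype, and 0 to 3 negative interactions. The interaction could not be fitted with only the groups compared, and the causes were not tested.

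Livers of the same replicate number had mean correlations of deviations of -0.08, -0.01, 0.06 and 0.13 in the 4 comparisons, over 5 pairs each. Single pairs ran from -0.55 to 0.47 for the genotypes on chow, so that these few pairs cannot settle whether the numbers pair the livers. With the replicate block, values that changed sign were 0.037 (Fas, MCD in FLCN KO), 0.034 (Fas) and 0.061 (Tnfrsf10b) by genotype on MCD, -0.087 (Ripk3, chow) and -0.072 (Casp8, interaction). With sex as a covariate they were 0.019 (Fas, MCD in FLCN KO), 0.017 (Fas) and 0.029 (Tnfrsf10b) by genotype on MCD and -0.017 (Casp8, interaction). In limma-voom they were 0.014 (Fas, genotype on MCD), -0.012 (Ripk3, chow) and -0.00435 (Casp8, interaction). With no filter they were 0.0099 (Casp1, chow) and -0.00390 (Casp8, interaction), with at least 10 counts 0.0064 (Fas, MCD in FLCN KO), 0.0022 (Casp1, chow) and -0.019 (Casp8, interaction), and with only the groups compared 0.0059 (Casp1, chow). Without the low-mapped libraries they were -0.44 (Ripk3, chow), -0.020 (Casp1, MCD in Cre), -0.10 (Casp8, interaction) and 0.059 (Gsdmd, interaction). None of these was called in the fit reported. Leaving out 1 library moved across 0 the log2 values of Fas (-0.14 to 0.053 for MCD in Cre, -0.074 to 0.051 for MCD in FLCN KO, -0.13 to 0.039 on chow, -0.12 to 0.072 on MCD, -0.061 to 0.13 for the interaction), Tnfrsf10b on MCD by genotype (-0.18 to 0.15), Ripk1 (-0.027 to 0.067 for MCD in FLCN KO, -0.0013 to 0.072 by genotype on MCD), Ripk3 on chow (-0.11 to 0.18), Casp1 on chow (-0.14 to 0.072), Casp4 on MCD in FLCN KO (-0.046 to 0.34), and the interactions of Casp8 (-0.094 to 0.071) and Gsdmd (-0.16 to 0.053). Depth limits the precision for genes of few reads, such as Tnfrsf10b with 1 to 68 counts.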
